A study of Homo sapiens with 12 samples.

Results

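Red cell membrane and blood group proteins were followed through their transcripts in 12 RNA-seq libraries of human leukemia cells. The 8 members, SLC4A1, SPTB, ANK1, EPB41, EPB42, GYPB, GYPC and RHAG, were chosen by gene symbol, and all 8 were among the 19447 symbols of the count table. The red cell membrane is a lipid bilayer laced to a protein skeleton. Spectrin tetramers form the mesh, ankyrin ties spectrin to the anion exchanger band 3, and protein 4.1 ties spectrin and actin to glycophorin C. Protein 4.2 steadies the band 3 and ankyrin contact, and the Rh-associated glycoprotein helps the Rh proteins reach the surface. Inherited defects in several of these proteins give spherocytic or elliptocytic red cells, and the glycophorins, band 3 and the Rh complex carry blood group antigens.

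K562 is an established line from a chronic myeloid leukemia that carries BCR-ABL and makes some erythroid genes. K562/IM is its derivative, raised step by step in imatinib (IM), the BCR-ABL inhibitor, and then kept in 5 µM of it. Lycorine (L), an alkaloid of the Amaryllis family, was given at 6 µM to the K562+L group and, by the labels, to a K562/IM+L group. The 4 groups held 3 libraries each, K562 and K562/IM without lycorine and the other two with it. Exposure time before RNA extraction is not given in the sources used here. By the labels both K562/IM groups are the 1 resistant derivative, and nothing in the labels says that libraries of a group came from separate cultures, so p-values measure only the spread between these libraries, which may be technical.

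The group labelled K562/IM+L is called G2 in the sample labels, whereas the study's drawings of that comparison carry the name G6. Its libraries were also mostly nearer to K562 than to K562/IM in genes read in 1 of these lines and at 0 counts in the other. Over all genes, edgeR called 3162 between them and K562 and 3917 between them and K562/IM. A call here is an adjusted p under 0.05 with a log2 fold change beyond 1 in size. Of 15 genes at 0 counts in every K562 and K562+L library and at 1 CPM or more (counts set relative to the depth of the library after TMM scaling) in every K562/IM library, 9 were at 0 in all 3 labelled libraries and 0 reached 1 CPM in all of them. Of 8 genes with the opposite pattern, 8 were read at 1 CPM or more in all 3. CD44, an adhesion receptor, had 148.9 to 155 CPM in K562/IM and 0 in the other 9 libraries, and COL1A2, a collagen chain, 15.4 to 18.1 against at most 0.0881. TGM2, a transglutaminase, went the other way, since the labelled libraries held 55.6 to 58.7 CPM of it, K562/IM 50.4 to 79.1 and K562 7.83 to 10.1. HBE1, a globin gene, was also higher in both K562/IM groups, with means of 97.6 CPM in K562, 544 in K562/IM and 1033 in the labelled libraries. These genes were chosen after their values were seen. A mislabelled line and an effect of the treatment on these genes cannot be told apart here. Each value of this group against K562/IM, and each difference between the lycorine effects, thus rests on a label that is not settled. The group is therefore called the labelled K562/IM+L group here, and it was compared both with K562/IM and with K562. The 3 labelled libraries stood above all other libraries in 7 of the 8 members, all but EPB41. The share of all genes standing so was not counted, so the 7 cannot be set against a background. By calls, which are another measure, 14.7% of all genes tested were higher in these libraries against K562/IM and 14.9% against K562.

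Libraries held 75093844 to 107344598 counts. The members took 0.187% to 0.197% of the counts in K562, 0.207% to 0.225% in K562+L, 0.130% to 0.139% in K562/IM and 0.439% to 0.483% in the labelled libraries. The line's erythroid character was checked with 14 erythroid markers, whose summed level was 6474 to 9461 CPM in K562, 4479 to 5363 in K562+L, 3019 to 3204 in K562/IM and 39322 to 56830 in the labelled group. Globin genes made up most of each sum. HBE1 had a mean of 97.6 CPM in K562 and 544 in K562/IM. Against K562, 8 of the 14 markers were called lower and 1 higher in K562/IM, beside 5.29% and 13.9% of all genes. KLF1 had a mean of 139 CPM in K562 and 174 in K562+L. There 3 of the 14 were called lower and 0 higher, beside 4.01% and 2.38% of all genes. The 8 megakaryocyte markers summed to 195 to 216 CPM in K562/IM, to at most 29.3 in the labelled group and to at most 9.93 elsewhere, with PPBP at 0 in all 4 groups. The 7 granulocyte markers summed to at most 6.41 CPM and the 5 fibroblast markers to at most 1.34, except for 20.1 to 25.1 in K562/IM, and S100A8 and S100A9 were at 0 in every group. Monocyte markers summed to 75.9 to 174 CPM, with 4 or 5 of the 6 under 1 CPM in each group, and lymphocyte markers to 29.8 to 68.8 CPM with MS4A1 at 0. Epithelial markers summed to 604 to 1004 CPM in all 4 groups. The part of these markers in the members' levels was not tested, and in bulk RNA a larger share of cells making a transcript and more of it per cell cannot be told apart.

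Stretches of DNA just upstream of the members are shown because many erythroid genes carry sites for GATA1, the master regulator of the lineage, and for KLF1, the erythroid Krüppel-like factor. RefSeq (GRCh38.p14) start sites were matched for 6 members with 9 entries, and SLC4A1 and ANK1 were not used. In the 250 bases before each start, the GATA motif (AGATAA, its variant AGATAG, and both of these with the first letter T, on either strand) stood in 7 of the 9 entries and at least once in each of the 6 members, against 22.3% of 35116 promoters. The KLF motif (CCNCNCCC, either strand, matches free to overlap) stood in 7 of the 9 entries and in 5 members, against 53.4% of all promoters, and both motifs together stood in 6.80% of all promoters. The windows of 3 members, cut where the annotated transcripts begin, follow on the coding strand with the motif letters in capitals. They show a beta spectrin start with both motifs and the GYPB start with GATA motifs alone. The protein 4.2 window, cut to 143 bases, held 1 match of each, whereas its full 250 bases held 2 GATA and 3 KLF matches.
SPTB, chr14:64879908-64880157, minus strand: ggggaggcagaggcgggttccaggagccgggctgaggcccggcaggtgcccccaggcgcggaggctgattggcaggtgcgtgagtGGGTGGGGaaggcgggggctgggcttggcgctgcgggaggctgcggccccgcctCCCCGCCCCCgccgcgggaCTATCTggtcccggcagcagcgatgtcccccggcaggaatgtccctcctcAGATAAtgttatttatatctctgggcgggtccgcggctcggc
GYPB, chr4:144019346-144019595, minus strand: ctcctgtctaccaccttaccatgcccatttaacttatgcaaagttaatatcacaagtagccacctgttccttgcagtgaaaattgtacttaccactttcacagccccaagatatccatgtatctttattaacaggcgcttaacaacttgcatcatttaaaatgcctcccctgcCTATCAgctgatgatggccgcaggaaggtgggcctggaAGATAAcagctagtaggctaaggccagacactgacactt
EPB42, chr15:43221126-43221268, minus strand: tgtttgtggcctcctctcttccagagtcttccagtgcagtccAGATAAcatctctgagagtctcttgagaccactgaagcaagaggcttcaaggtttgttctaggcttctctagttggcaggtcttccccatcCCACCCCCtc
The SPTB window held 2 GATA and 3 KLF matches and the GYPB window 2 GATA and 0 KLF matches. Over 244 aligned bases the GYPB window was 98.0% identical to that of GYPE, its neighbour in the glycophorin cluster. A match is a string of letters and not a measured binding site.

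Band 3, the chloride and bicarbonate exchanger of the red cell, is encoded by SLC4A1 (GRCh38, chromosome 17, 44248385 to 44268141, minus strand). SLC4A1 was nearly silent in 9 libraries and among the strongly read members in the labelled ones. It stood at 3.61, 4.36 and 5.07 CPM in the K562 libraries 1, 2 and 3, at 4.69, 4.80 and 6.88 in K562+L, at 0.0958, 0.0833 and 0.187 in K562/IM, and at 1000.2, 923 and 1030.1 in the labelled libraries. The K562 and K562+L ranges overlapped, all K562/IM libraries lay below them, and all labelled libraries lay far above. The K562/IM level rests on 36 counts in all, 8, 8 and 20 per library. Since low counts piled up near multiples of 4, the 95% Poisson interval of that sum was taken on a divisor of 4 and ran from 16.5 to 68.3 counts. It covers counting error only.

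SLC4A1 fell by 5.12 on the log2 scale in K562/IM against K562 (SE 0.34, edgeR adjusted p = 1.6e-05). The labelled libraries exceeded K562/IM by 12.95 (SE 0.22, adjusted p = 1.1e-07) and K562 by 7.80 (SE 0.17, adjusted p = 1.8e-06), the latter a 223-fold difference with a 95% interval of 170 to 294. By p-value, SLC4A1 ranked 4 of 13727 genes in the first of these and 3 of 13307 in the second. With 8, 8 and 20 counts in K562/IM and a filter minimum of 10, it entered the first through the labelled group. The fits took each count as 1 read, although 1 fragment may weigh more. Its SEs in fits with K562/IM, the interaction among them, may therefore be too small. In K562+L against K562 the log2 fold change was 0.33 (95% interval -0.14 to 0.80, adjusted p = 0.239), which does not pass the test.

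EPB42 (chromosome 15, 43197227 to 43221125, minus strand) encodes protein 4.2, a relative of the transglutaminases without their enzyme activity that binds band 3 and ankyrin. Its libraries stood at 0.196, 0.334 and 0.656 CPM in K562, 0.716, 0.462 and 0.653 in K562+L and 0.443, 0.125 and 0.215 in K562/IM, and at 35.2, 36.8 and 34.5 in the labelled group. The 9 libraries of the first 3 groups overlapped near the low end of the scale, and the 3 labelled libraries were close to each other and far above them. EPB42 was higher in the labelled group than in K562/IM by 7.14 (SE 0.35, adjusted p = 2.9e-06) and than in K562 by 6.47 (SE 0.37, adjusted p = 2.0e-05). The remaining comparisons could not show a difference at this depth, with summed counts of 95 in K562, 170 in K562+L and 72 in K562/IM and 95% intervals of the log2 fold change from -0.51 to 1.77 in K562+L and from -2.09 to 0.88 in K562/IM, both against K562. Of the 50-base words of its longest coding transcript, 16.5% are shared with AC068724.4, an overlapping transcript on the same strand, so that counts may be split between them.

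**Figure D1:**
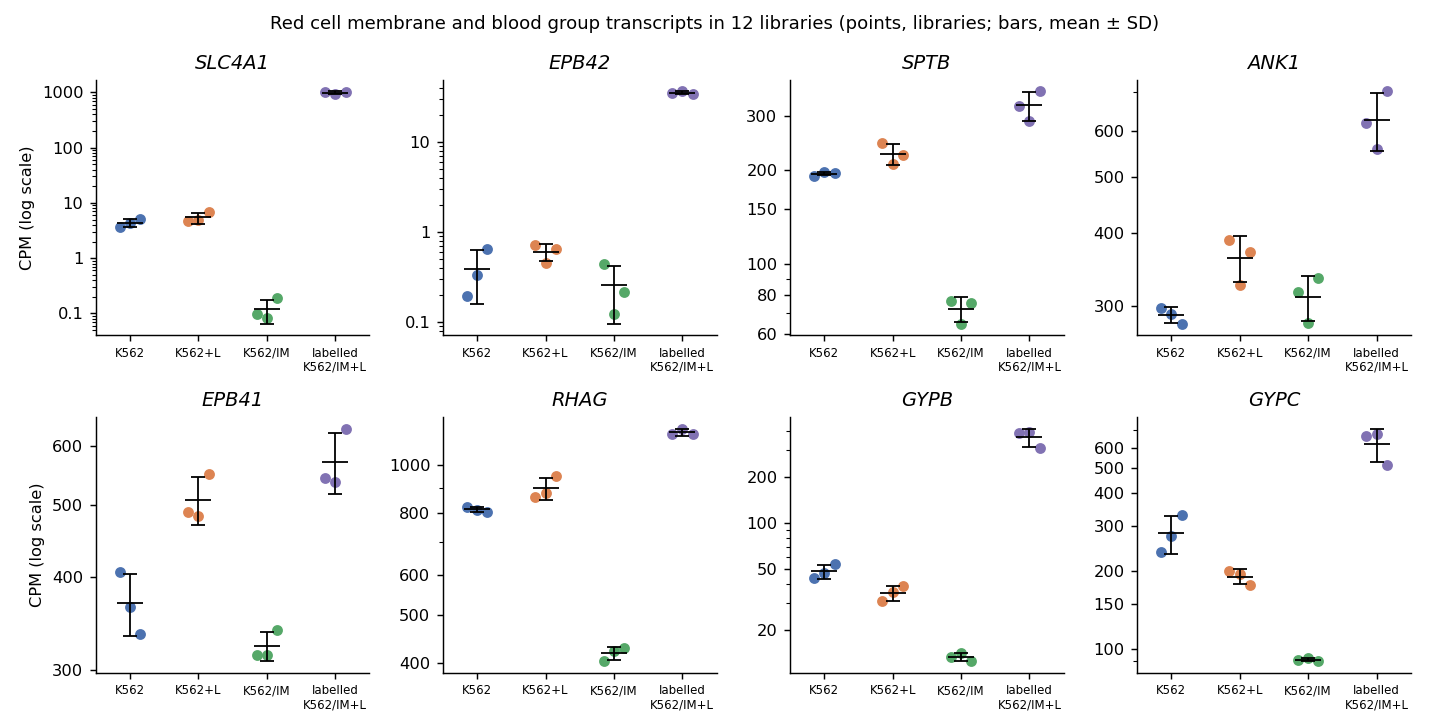
CPM of each of the 8 transcripts (log axis, a scale for each panel) in the 3 libraries of each group, with points for libraries in the order 1, 2, 3 and bars for mean and SD. SLC4A1 and EPB42 lie at or under 6.88 and 0.716 CPM in 9 libraries and at or above 923 and 34.5 in the 3 labelled ones, while ANK1 and EPB41 span a much smaller range.

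SPTB (chromosome 14, 64746283 to 64879907, minus strand) encodes erythroid beta spectrin, the chain that carries the ankyrin and protein 4.1 contacts. It was read at 193, 198 and 196 CPM in K562, 245, 210.2 and 224 in K562+L, 76.5, 64.5 and 74.9 in K562/IM and 323, 289 and 359 in the labelled libraries. The 4 groups formed 4 separate bands, lowest in K562/IM and highest in the labelled libraries. SPTB fell by 1.44 in K562/IM against K562 (SE 0.084, adjusted p = 8.5e-06) and was higher in the labelled group than in K562/IM by 2.19 (SE 0.11, adjusted p = 3.6e-06). Against K562 the labelled libraries were higher by 0.71 (SE 0.094, adjusted p = 6.6e-04), under the fold threshold of 1. The K562+L value of 0.21 (SE 0.084, adjusted p = 0.0818) did not pass although the libraries did not overlap.

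ANK1 (chromosome 8, 41653220 to 41896762, minus strand) encodes erythroid ankyrin. Its libraries held 297, 290.5 and 279 CPM in K562, 389, 325 and 372 in K562+L, 317, 279.8 and 334 in K562/IM and 619, 559 and 703 in the labelled group. Unlike SPTB, ANK1 overlapped between K562 and K562/IM, with a log2 difference of 0.10 (95% interval -0.09 to 0.29, adjusted p = 0.318). ANK1 was higher in the labelled libraries by 1.04 against K562/IM (SE 0.11, adjusted p = 1.2e-04) and by 1.10 against K562 (SE 0.098, adjusted p = 1.1e-04). The first lies close to the fold threshold, at 0.97 without K562/IM library 2 and 0.95 without labelled library 3. Lycorine in K562 went with a rise of 0.32 (SE 0.089, adjusted p = 0.0235), which no longer passed without K562 library 2 (adjusted p = 0.0856), K562 library 3 (0.0519), K562+L library 1 (0.0850) or K562+L library 3 (0.0813).

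EPB41 (chromosome 1, 28887091 to 29120046, plus strand) encodes protein 4.1R, the clamp of the spectrin and actin junction. It was read at 406, 364 and 336 CPM in K562, 489, 483 and 551 in K562+L, 315, 314 and 339 in K562/IM and 544, 537 and 634 in the labelled libraries. K562 library 3 lay just below K562/IM library 3, so these groups overlapped, and K562+L overlapped the labelled group. Of the members, EPB41 had the largest rise in K562+L that passed the test, 0.46 (SE 0.097, adjusted p = 0.0088). It was higher in the labelled group than in K562/IM by 0.85 (SE 0.088, adjusted p = 1.1e-04) and than in K562 by 0.61 (SE 0.11, adjusted p = 0.00226), both under the fold threshold. In K562/IM against K562 its value was -0.19 (SE 0.086, adjusted p = 0.0885).

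Exons of SPTB overlap those of PLEKHG3, exons of EPB41 those of TMEM200B and exons of ANK1 those of AC113133.1, each on the opposite strand. Whether counting used strand is not given in the sources used here, so reads from these pairs cannot be told apart. MIR7855 overlaps an exon of SPTB on the same strand.

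GYPB (chromosome 4, 143996104 to 144019345, minus strand) encodes glycophorin B, which carries the S and s antigens. Its libraries stood at 43.8, 47.1 and 53.9 CPM in K562, 30.9, 35.6 and 38.8 in K562+L, 13.2, 14.1 and 12.5 in K562/IM and 393, 398 and 310.2 in the labelled group. The 4 groups did not overlap, and unlike the skeleton genes GYPB was lower in K562+L than in K562. It fell by 0.46 in K562+L (SE 0.12, adjusted p = 0.0186) and by 1.86 in K562/IM (SE 0.10, adjusted p = 6.7e-06). The K562+L value did not pass without K562 library 2 (adjusted p = 0.0560), K562+L library 1 (0.0701) or K562+L library 2 (0.0505). The labelled libraries exceeded K562/IM by 4.82 (SE 0.12, adjusted p = 2.9e-07), a 28.2-fold difference, and K562 by 2.91 (SE 0.15, adjusted p = 1.2e-05). Of the 50-base words of the longest GYPB transcript, 24.8% also occur in transcripts of other genes, so part of its level may belong to those.

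GYPC (chromosome 2, 126655933 to 126696670, plus strand) encodes glycophorins C and D, which bear the Gerbich antigens and anchor protein 4.1. Its libraries held 238, 273 and 329 CPM in K562, 201, 195 and 177 in K562+L, 90.9, 92.5 and 90.2 in K562/IM and 665, 677 and 514 in the labelled group. The groups did not overlap, with K562/IM the lowest and the tightest. GYPC shares no 50-base word with another gene, and it moved in the same directions as GYPB. It fell by 0.56 in K562+L (SE 0.13, adjusted p = 0.0115) and by 1.62 in K562/IM (SE 0.12, adjusted p = 2.6e-05). It was higher in the labelled group than in K562/IM by 2.79 (SE 0.11, adjusted p = 1.4e-06) and than in K562 by 1.13 (SE 0.16, adjusted p = 9.8e-04).

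RHAG (chromosome 6, 49605158 to 49636884, minus strand) encodes the Rh-associated glycoprotein, an ammonium and gas channel that brings the Rh antigens to the surface. It was read at 824, 811 and 804 CPM in K562, 862, 879 and 949 in K562+L, 404, 424 and 428 in K562/IM and 1151, 1181 and 1149.8 in the labelled libraries. The 4 groups did not overlap and the libraries within a group were close. RHAG fell by 0.96 in K562/IM (SE 0.060, adjusted p = 1.1e-05), just under the fold threshold. The labelled libraries were higher by 1.50 against K562/IM (SE 0.061, adjusted p = 1.4e-06) and by 0.49 against K562 (SE 0.071, adjusted p = 9.8e-04). The K562+L value was 0.14 (95% interval -0.02 to 0.30, adjusted p = 0.148).

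**Figure D2:**
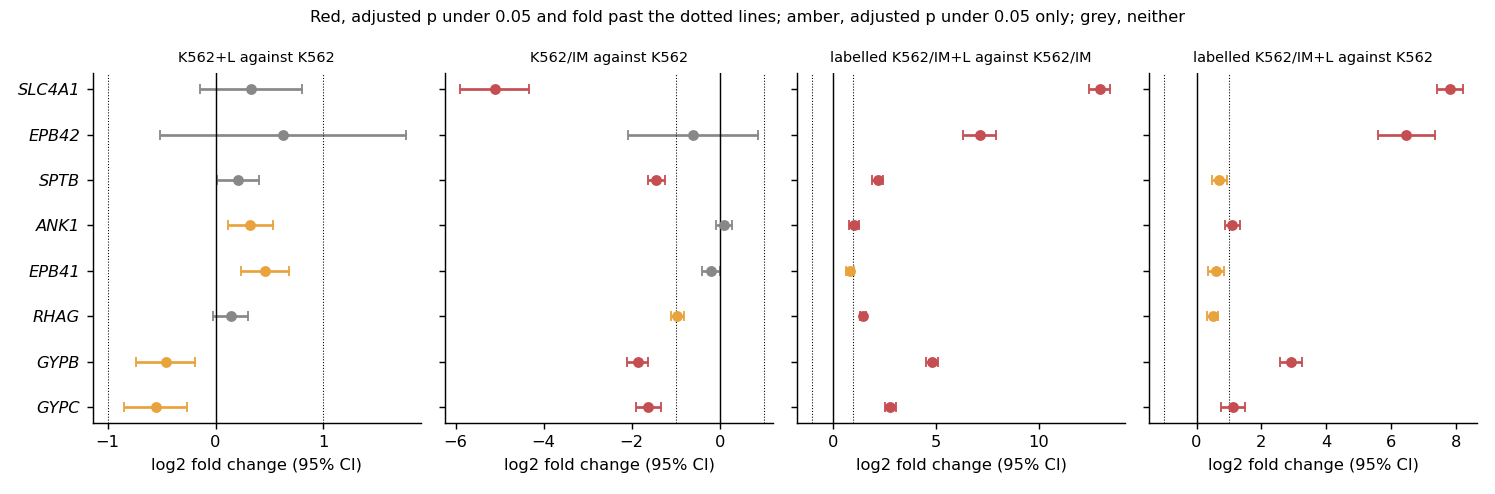
Log2 fold change with its 95% interval for the 8 members in 4 comparisons, each panel with its own axis, dotted lines at the fold threshold of 1. In K562+L the members fall on both sides of 0 and inside the threshold, in K562/IM 4 lie past it on the low side, and in the labelled libraries all 8 lie above 0 against either control.

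In K562+L against K562, edgeR called 0 of the 8 members, and DESeq2 0. A call needed an adjusted p under 0.05 and a change of more than 1 on the log2 scale. At that threshold edgeR called 6.39% of the 12927 genes tested, 2.38% higher and 4.01% lower. At an unadjusted p under 0.05 with no fold threshold 5 members passed. The share of all genes at this looser threshold was not counted, so the 5 cannot be set against a background. At the adjusted p alone ANK1 and EPB41 were higher and GYPB and GYPC lower, 2 in each direction, against 18.2% of all genes higher and 19.0% lower, so these counts of 8 are near the background. Both that rose encode skeleton proteins and both that fell encode glycophorins, but SPTB, also of the skeleton, did not pass (adjusted p = 0.0818). With counts this near the background, no split by kind of protein is read from them. The members' median log2 fold change was 0.27, and that of all genes tested -0.00012.

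In K562/IM against K562, 4 of the 8 members were called lower (SLC4A1, SPTB, GYPB and GYPC) and 0 higher, against 5.29% of 13406 genes called lower and 13.9% called higher. RHAG passed the adjusted p as well, 5 members in all, against 27.1% of all genes lower at that threshold. The median of the members was -1.20 and that of all genes 0.042. The skeleton genes did not move as one, since SPTB fell while ANK1 and EPB41 had intervals of -0.09 to 0.29 and of -0.39 to 0.01.

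Against K562/IM, 7 of the 8 members were called higher in the labelled libraries, all but EPB41, with 14.7% of 13727 genes called higher and 13.8% called lower. All 8 passed the adjusted p, against 33.2% of all genes higher at that threshold. The median of the members was 2.49, and that of all genes -0.0069. This comparison shares its K562/IM libraries with the one above, in which they are the lower group for 4 members. Against K562, 5 members were called higher (SLC4A1, ANK1, EPB42, GYPB and GYPC), with 14.9% of 13307 genes called higher and 8.91% called lower, and all 8 passed the adjusted p against 28.2% of all genes. The median was 1.11 for the members and 0.020 for all genes.

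Whether the lycorine effect, as labelled, differed between the lines was asked of the interaction term of a fit to the 12 libraries. It was higher in K562/IM, as labelled, for 8 of 8 members at an adjusted p under 0.05, against 29.9% of 13995 genes. Its direction rests on the label of the K562/IM+L libraries, which lacked CD44 as K562 did. The difference was 12.60 for SLC4A1 (SE 0.33), 6.48 for EPB42 (SE 0.59), 5.26 for GYPB (SE 0.18) and 3.32 for GYPC (SE 0.18). It was smaller for the genes of the spectrin mesh and for the Rh glycoprotein, at 1.96 for SPTB (SE 0.13), 1.33 for RHAG (SE 0.078), 0.69 for ANK1 (SE 0.14) and 0.37 for EPB41 (SE 0.13). EPB41, with an adjusted p of 0.0260, did not pass in 5 of the 12 fits that left out 1 library each, those without K562+L library 1 or 2, K562/IM library 1 or 2 or labelled library 3, where its value was 0.29 to 0.36 (adjusted p 0.0505 to 0.0637).

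Levels of different genes were compared per kilobase of the longest coding transcript (CPM per kb). In K562 the order was RHAG at 404 ± 5.13 (SD, n = 3), GYPC at 155 ± 25.6, GYPB at 92.7 ± 9.88, EPB41 at 61.3 ± 5.90, ANK1 at 34.1 ± 1.06, SPTB at 19.2 ± 0.245, SLC4A1 at 0.877 ± 0.147 and EPB42 at 0.160 ± 0.0957 CPM per kb. In the labelled libraries GYPB led at 705 ± 94.9, followed by RHAG at 576 ± 8.71, GYPC at 343 ± 50.3 and SLC4A1 at 199 ± 11.1, ahead of EPB41 at 89.3 to 105, ANK1 at 73.9 ± 8.51, SPTB at 31.8 ± 3.42 and EPB42 at 14.4 ± 0.465. SLC4A1 thus stood at place 7 of 8 in K562 and at place 4 of 8 in the labelled libraries, and in K562/IM it was last at 0.0246 CPM per kb. No pair of neighbours in these orders had overlapping libraries. The place of GYPB depends on its length, since the longest coding transcript has 521 bases and the union of its exons 1872. Per kilobase of exon union the labelled libraries gave RHAG 431, GYPB 196 and SLC4A1 192, and in K562 ANK1 (26.8) stood above GYPB (25.8).

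Each member has relatives used in other tissues, and the share of the red cell gene in the summed level of its family (CPM per kb) describes which form a cell made. Among the plasma membrane anion exchangers SLC4A1, SLC4A2 and SLC4A3, SLC4A1 held 1.33% in K562, 1.22% in K562+L, 0.0616% in K562/IM and 85.4% in the labelled libraries (means of 3). SLC4A2, the widely used form, was read at 65.0 ± 6.82 CPM per kb in K562 and 33.2 ± 0.806 in the labelled libraries. SPTB held 43.5% of the 5 beta spectrins in K562, 37.3% in K562+L, 18.0% in K562/IM and 76.5% in the labelled libraries. There SPTBN1, the beta spectrin of most cells, stood at 6.07 ± 1.43 CPM per kb against 18.6 ± 2.89 in K562, with a log2 fold change of -1.64 (SE 0.19, adjusted p = 3.1e-04). So both families had more of the red cell form and less of the general one in the labelled libraries than in K562.

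Ankyrin and the Rh glycoproteins showed no such turnover. ANK1 held 98.9% to 99.8% of the 3 ankyrins as a mean of any group, and RHAG stood all but alone beside RHBG and RHCG. EPB41 held 73.5% of the protein 4.1 family in K562, 82.7% in K562+L, 80.7% in K562/IM and 90.2% in the labelled libraries. EPB42 rose from 6.83% of the 9 transglutaminase genes in K562 to 51.6% in the labelled libraries, and its 0.746% in K562/IM stood beside a TGM2 level of 13.5 ± 3.14 CPM per kb against 1.76 ± 0.225 in K562.

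**Figure D3:**
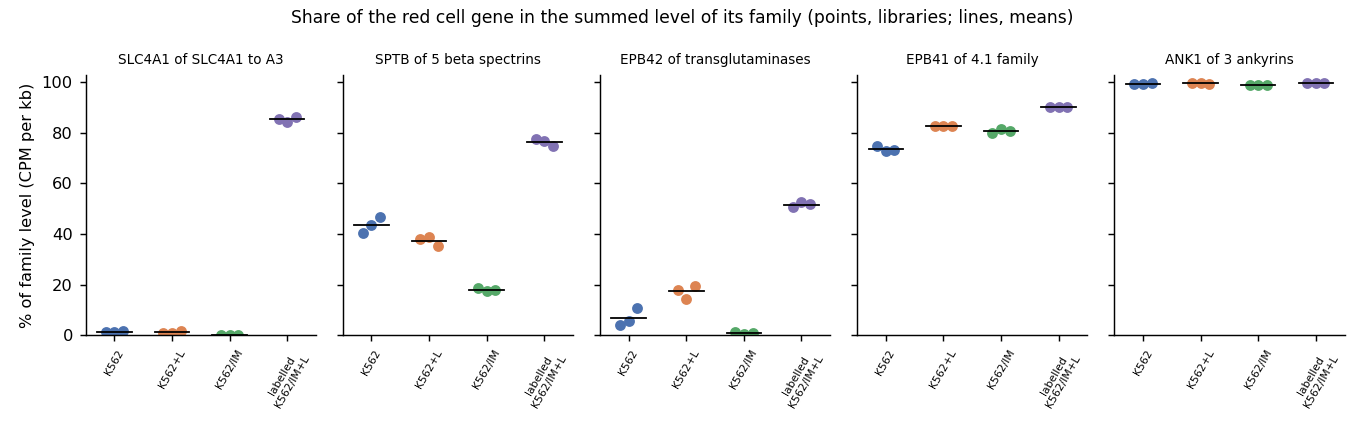
Share of the member in the summed level of its gene family, in percent of CPM per kb, for 3 libraries of each group, with lines at the means. SLC4A1 goes from 1.33% of its family in K562 to 85.4% in the labelled libraries and SPTB from 43.5% in K562 to 76.5%, while ANK1 stays between 98.9% and 99.8% as a group mean.

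Partners within a complex did not keep fixed proportions. Per kilobase, the ratio of ANK1 to SPTB was 1.78 ± 0.0690 in K562, 1.92 ± 0.0683 in K562+L, 5.18 ± 0.193 in K562/IM and 2.33 ± 0.0248 in the labelled libraries, so K562/IM stood apart. RHCE, which carries the C and E antigens and needs RHAG to reach the surface, was read at 0.0272 ± 0.00527 times the RHAG level in K562 and at 0.130 ± 0.0173 in the labelled libraries.

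Other genes of the membrane were counted from 3 lists, 40 other membrane and skeleton genes, 43 other blood group genes and 32 paralogues used outside the red cell. In the labelled libraries against K562/IM, 14.7% of all 13727 genes tested were called higher and 13.8% lower. Of the 39 membrane and skeleton genes tested, 12 were called higher and 8 lower, with a median log2 fold change of -0.21. ATP1B2, a sodium pump subunit (5.20), and SLC2A1, the glucose transporter of the red cell (3.01), were the higher calls with the smallest p. STOM, the stomatin gene (-2.38), and TPM4, a tropomyosin (-1.73), were the lower ones. Of 39 blood group genes tested, 18 were called higher and 3 lower, with a median of 0.96. KEL, the Kell antigen protease (2.44), was among the higher calls with the smallest p, and CD47 (-1.57) and CD44 led the lower ones. CD44, the carrier of the Indian antigens, had 0 counts in all 3 labelled libraries and a mean of 152 CPM in K562/IM, at least 3621-fold lower with a floor of 3 counts per library. Of 22 paralogues tested, 4 were called higher, among them TGM1 (2.92) and SLC4A3 (2.26), and 5 lower, among them SLC4A11 (-3.22) and SLC4A7 (-2.29), with a median of -0.29.

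**Figure D4:**
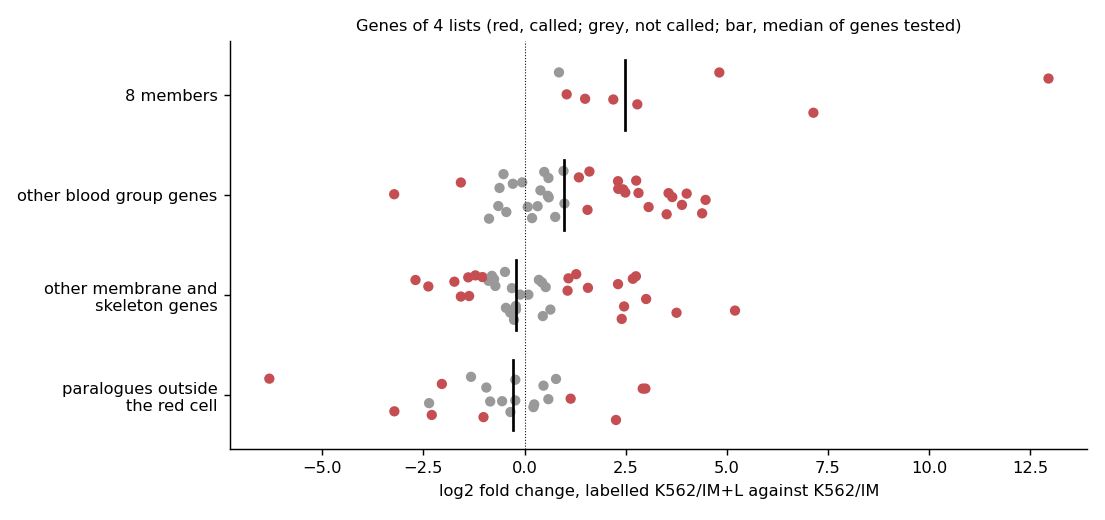
Log2 fold change of each gene of the 4 lists in the labelled libraries against K562/IM, red where called, with a bar at the median of the genes tested. CD44 and XG, each without a count in 1 of these groups, are not drawn. The 8 members lie from 0.85 to 12.95, while the membrane and skeleton genes and the paralogues spread to both sides of 0.

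Set against K562, the labelled libraries had 14.9% of all 13307 genes tested called higher and 8.91% lower. They gave 10 higher and 2 lower calls among 39 membrane and skeleton genes (median 0.21). The blood group list had 18 higher and 0 lower among 37 (median 1.07), and the paralogues 6 higher and 4 lower among 21 (median -2.1e-05). SLC2A1 (2.25) and CA1, carbonic anhydrase 1 (3.15), led the higher calls of the first list, and SLC16A1, a lactate transporter that pairs with the carrier of the Ok antigen (-1.32), and STOM (-1.59) were its lower ones. AQP1, the water channel that carries the Colton antigens (4.29), and KEL (2.92) led the second. TGM2 (2.67) and SLC4A3 (3.56) rose and SPTBN1 (-1.64) and EPB41L2 (-1.18) fell among the paralogues.

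In K562/IM against K562, 13.9% of all 13406 genes tested were called higher and 5.29% lower. The membrane and skeleton list was near these shares, with 5 higher and 2 lower calls among 39 (median 0.12). The blood group list had 4 higher and 8 lower among 37 (median -0.23), and the paralogues 7 higher and 0 lower among 22 (median 0.48). ADD2, the erythroid beta adducin (-2.20), and ATP1B2 (-3.42) were the lower calls of the first list, and TPM4 (1.84) and ATP1B1 (2.91) led its higher ones. ABCG2, which carries the Junior antigen (-3.56), and BCAM, the Lutheran glycoprotein (-2.23), led the lower calls of the second, and GCNT2, the I branching enzyme (2.97), led its higher calls with CD44. CD44 had 0 counts in the 3 K562 libraries and was at least 3926-fold higher in K562/IM. TGM2 (2.94) and SLC4A11 (1.29) led the paralogues.

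In K562+L against K562 few genes of these lists were called, beside 2.38% of all 12927 genes tested called higher and 4.01% lower. The membrane and skeleton list had SLC2A1 higher (1.10) and 3 genes lower, among them ATP1B2 (-1.61) and TFRC, the transferrin receptor (-1.06), with a median of -0.099 over 39 genes. The blood group list had ERMAP, the Scianna antigen carrier, higher (1.27) and FUT1, the H enzyme (-1.87), and SMIM1, the Vel antigen (-1.96), lower, with a median of -0.21 over 35. TGM2 (-1.11) and SLC4A11 (-1.21) were the 2 paralogues called lower of 21 tested (median -0.10).

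Within groups the libraries differed along transcript length. Over 10357 genes, the rank correlation of transcript length with a library's deviation from its group mean was 0.62, -0.14 and -0.62 in K562 libraries 1, 2 and 3, 0.0024, -0.56 and 0.48 in K562+L, 0.083, -0.23 and 0.18 in K562/IM and -0.48, -0.62 and 0.69 in the labelled libraries. In labelled library 3 the long transcripts of SPTB, ANK1 and EPB41 were above the group mean by 0.15, 0.17 and 0.15 on the log2 scale and the short ones of GYPB and GYPC differed from it by -0.23 and -0.26. RHAG, with 2014 bases, differed from it by only -0.013. In K562 library 3, with a correlation of the opposite sign, GYPB and GYPC were above their mean by 0.16 and 0.25 and EPB41 differed by -0.13. There SPTB, the longest, differed by 0.0020, ANK1 by -0.048 and RHAG by -0.016, so not every member followed its length. These deviations are small beside the group differences of SLC4A1, EPB42 and GYPB. The changes of ANK1, EPB41, GYPB and GYPC in K562+L, of 0.32 to 0.56 in size, are nearer to them, and the part of transcript length in those was not tested.

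**Figure D5:**
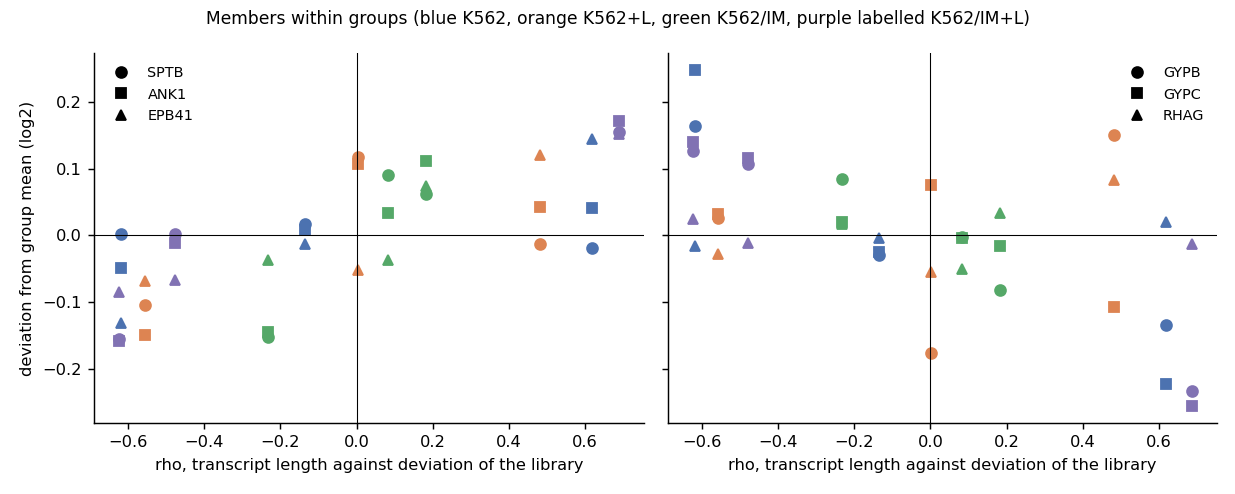
Deviation of a library from its group mean (log2) for 6 members against the library's rank correlation of transcript length with deviation over 10357 genes. ANK1 lies above 0 in every library with a positive correlation and GYPC below 0 in all of these but K562+L library 1, with labelled library 3 at the right end (0.69).

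Genes whose pattern was most like that of the members were found by Pearson correlation of log2 CPM with the mean of the members' standardised levels over the 12 libraries, among 13987 other genes. The 5 highest were ST6GALNAC1 (r = 0.993), ESPN (0.989), TMOD1 (0.988), WNK4 (0.988) and ABCB10 (0.988). ESPN, an actin bundling protein, was read at 6.04 to 8.54 CPM in K562, 9.98 to 12.9 in K562+L, 0.700 to 0.850 in K562/IM and 779 to 906 in the labelled libraries. TMOD1 caps the short actin filaments of the red cell skeleton, and ABCB10 is a mitochondrial transporter of erythroid cells. The members themselves correlated with the mean from 0.878 (ANK1) to 0.995 (SLC4A1). The 12 points form 4 groups that share lines and treatments, so these values are a description.

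Among the regulators named above, the transcript of GATA1 was read at 230 ± 37.7 CPM in K562 (SD, n = 3), 206 ± 23.1 in K562+L, 196 ± 2.41 in K562/IM and 249.8 ± 32.6 in the labelled libraries, and that of KLF1 at 139 ± 25.1, 174 ± 22.6, 87.5 ± 6.17 and 345 ± 45.4. KLF1 was higher in the labelled group than in K562/IM by 2.01 (adjusted p = 5.4e-06) and GATA1 by 0.38 (adjusted p = 0.0110). Both had the highest mean in the labelled libraries, and GATA1 overlapped between these and K562.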

How the data were processed

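Messenger RNA of 12 libraries, 3 a group, was analysed. The authors deposited gene counts, 1 whole number per symbol and library, without normalization. The submitters' processing notes name FastQC, STAR, StringTie, DESeq2 and build hg38 without their roles. The annotation and the strand setting are not given in the sources used here. Of 23289 values from 1 to 25, 67.9% were a multiple of 4 or 1 above one (52% of those whole numbers are), so 1 fragment may weigh more than 1 count, and counts divided by 4 were tried.

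From the counts, R 4.3.3 with edgeR 4.0.16 was used. For each comparison the 6 libraries were filtered (filterByExpr, minimum count 10), scaled by TMM and fitted with the quasi-likelihood test, with Benjamini-Hochberg adjustment over all genes tested. A call needed an adjusted p below 0.05 together with a log2 fold change beyond 1 in size. For the interaction, fitted to 12 libraries, it needed the adjusted p alone. CPM came from TMM factors of the 12 libraries, and log2 CPM had a prior count of 2. A permutation test of 3 against 3 libraries cannot go below 0.1. The steps were tested on simulated counts. DESeq2 1.42.0 was an alternative.

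Positions, lengths and overlaps came from GENCODE 29 (GRCh38), which matched 19029 of 19447 symbols. Length correlations used genes over 1 CPM. Of each list, the called genes named were the 2 with the smallest p in each direction, with 1 result not reported here, and of the likeness ranking the first 5. Partners, family neighbours and the regulators GATA1 and KLF1 were named beside the members as their relatives or markers. The members and all lists were chosen with earlier results of these data known.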

Additional observations from a re-analysis of the deposited data

Results flagged for a closer look

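The lycorine effect, as labelled, differed between the lines in edgeR's interaction test for each of the 8 members, and was higher in K562/IM, as labelled, each time. The difference on the log2 scale was 12.60 for SLC4A1 (adjusted p = 1.7e-10), 6.48 for EPB42 (adjusted p = 2.4e-06), 5.26 for GYPB (adjusted p = 1.4e-09), 3.32 for GYPC (adjusted p = 4.3e-08), 1.96 for SPTB (adjusted p = 2.5e-07), 1.33 for RHAG (adjusted p = 7.7e-08), 0.69 for ANK1 (adjusted p = 0.00101) and 0.37 for EPB41 (adjusted p = 0.0260). Of all 13995 genes tested, 29.9% were higher in this sense. Each value rests on the labels of the K562/IM+L libraries, whose group name differs between the labels and the study's drawings and which lacked CD44 as the K562 libraries did (0 counts in all 3, against 152 CPM in K562/IM). With 3 libraries a group, single libraries were not tested for standing apart.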

How the results depend on the processing

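The number of members called was 0 in K562+L against K562 (0 in the 6 fits without 1 library each), 4 in K562/IM against K562 (4 in each such fit), 7 in the labelled libraries against K562/IM (6 to 7), 5 against K562 (5 in each) and 8 for the difference between the lycorine effects (7 to 8 in 12 fits). Without the fold threshold the first count was 4 and that against K562 was 8. No alternative reversed a member's direction. Of the members' fold changes, 308 of 308 under other tests, scalings, filters and fits kept their direction and their call, and 281 of 288 with 1 library left out did. A call joins the adjusted p and the fold threshold, except in the interaction, where it is the adjusted p. The 7 others, 2 of ANK1 against K562/IM and 5 of EPB41 in the interaction, stand with their values in the report. At the adjusted p alone, EPB41 passed in K562/IM against K562 with DESeq2 (adjusted p = 0.0360) and without K562 library 3 (0.0154), and in K562+L against K562 ANK1 did not pass with the replicate block (0.0730) or in 4 of the 6 fits without 1 library, nor GYPB in 3 of them. Requiring 10 counts in every library left SLC4A1 untested in fits with K562/IM, which brought their counts to 3, 6 and 7. Upper-quartile scaling moved the median of all genes by 0.15 in the labelled libraries against K562 and by 0.13 in the interaction. With exon unions as lengths, levels per kilobase moved by less than 1 SD for SLC4A1 in all groups and for EPB42 in all but the labelled one, and by more for the other members. In the labelled libraries the order then became RHAG, GYPB, SLC4A1, GYPC, ANK1, EPB41, SPTB and EPB42.

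The replicate numbers in the titles do not pair the libraries by any label, and the correlations of same-numbered libraries' deviations ran from -0.227 to 0.150 over the 18 such pairs of the 4 groups, with 2 above 0.1. With the replicate block the members called were 0, 4, 7, 5 and 8 in the order above, and calls over all genes were 735, 2433, 3807, 2913 and 8319 against 826, 2566, 3917, 3162 and 8628 without it. Counts of 8 to 20 in K562/IM limit the precision of SLC4A1, and counts of 12 to 68 limit EPB42 in the 9 libraries that are not labelled K562/IM+L.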

Other observations

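Some other genes of the membrane lists varied widely between libraries of 1 group. TPM3, a tropomyosin of the skeleton, was read at 227, 216 and 542 CPM in K562, 449, 202 and 452 in K562+L, 253, 536 and 274 in K562/IM and 121, 326 and 311 in the labelled libraries. ADD2, the erythroid beta adducin, stood at 614, 332 and 613 CPM in the labelled libraries. No member varied to this extent except EPB42 and SLC4A1 at their lowest levels. Both genes were chosen after their values were seen.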
